A study of Homo sapiens with 15 samples.

Results

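The 9 genes described here are the cyclin-dependent kinases CDK2, CDK4 and CDK6, the p27 family inhibitors CDKN1B and CDKN1C, and the INK4 inhibitors CDKN2A, CDKN2B, CDKN2C and CDKN2D. They were taken by symbol from 770 genes on a NanoString cancer pathway panel. Their RNA was counted in HCT116, an established human colorectal cancer cell line, in 5 groups of 3 biological replicates. Control cells were left untreated, and the other groups received 40 µM thymoquinone (TQ, a natural product of black cumin), 15 µM 5-fluorouracil (5-FU, a pyrimidine analog that blocks thymidylate synthesis), a mixture of 35 µM TQ with 35 µM 5-FU (Combi), or 35 µM SARB, a hybrid molecule made from TQ and 5-FU. All treatments lasted 24 h, and all groups were the same line in the same medium. The study dissolved its compounds in dimethyl sulfoxide, while the labels call the control cells untreated and name no solvent control. The questions were how each treatment changed RNA levels against untreated cells, and how the treatments differed from each other. The TQ dose was lower and the 5-FU dose higher in Combi than in the single treatments, so only SARB and Combi shared a molar dose and were set against each other.

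Cyclin-dependent kinases drive the cell cycle when a cyclin binds them. CDK4 and CDK6 pair with D-type cyclins and start the phosphorylation of the retinoblastoma protein in G1, and CDK2 pairs with cyclin E and cyclin A to complete it and to carry the cell through S phase. The INK4 proteins bind CDK4 and CDK6 and keep D-type cyclins away from them. The p27 family proteins bind whole cyclin and kinase complexes, CDK2 complexes above all, and p27 itself is set largely by its translation and its destruction, so its RNA and its protein need not move together. CDKN2A and CDKN2B are neighbors on chromosome 9, and in colorectal tumors CDKN2A is often silenced by methylation of its promoter.

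The assay hybridizes a pair of probes to each transcript and counts their fluorescent barcodes directly, with no amplification step. Counts were divided by a relative depth, taken from the geometric mean of 40 housekeeping genes, and are given as scaled counts. Total raw counts of the 730 endogenous genes ranged from 135017 to 607782 per sample. All 9 genes exceeded the background, the mean plus 2 SD of 8 negative probes, in all 15 samples. The lowest raw counts were those of CDKN2A, at 18 to 121, and it came closest to background in control replicate 2, with 28 counts against a threshold of 26.4. The samples ran on 3 cartridges: TQ, 5-FU, SARB and control replicate 1 shared cartridge 1, Combi replicate 1 and the remaining control samples shared cartridge 2, and cartridge 3 held only Combi replicates 2 and 3. SARB and Combi never shared a cartridge, so treatment and cartridge cannot be told apart between them by samples run side by side. Among cell type markers, 8 epithelial genes such as SFN, ITGB4 and MET exceeded background in all 15 samples. The mesenchymal genes COL1A2, COL3A1, PDGFRA and PDGFRB did so in none. These markers cannot tell HCT116 from another epithelial line. The summed scaled count of the epithelial genes was 5881 to 7787 in control and 6515 to 6726 in TQ, whereas the samples of the remaining groups lay between 14802 and 19789. Of the other markers, COL1A1 exceeded background in 13 samples and each of 7 blood cell genes in 0 to 7. Whether these markers had a part in the results was not tested.

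A gene was called higher or lower when its adjusted p (edgeR's quasi-likelihood test, Benjamini-Hochberg adjustment over all 730 endogenous genes) did not exceed 0.05 and its fold change reached 1.5. In the main edgeR fit, under housekeeping scaling with all samples, none of the 9 genes was called higher in any comparison. That direction depended on the fit. In TQ both TMM and DESeq2 called 2 of the 9 genes higher and 0 lower. The share of all genes called in TQ moved to 10.8% higher and 6.03% lower with TMM. CDKN2B was called higher in 5-FU with TMM (14.2% of all genes) and with the values normalized by the authors (12.3%). TMM further called CDKN1C higher in Combi (16.3%), and CDK4, CDK6 and CDKN2A in SARB against Combi (5.34%). In the main fit CDKN1C and CDKN2D fell in TQ, which makes 2 of 9 lower against 21.6% of all genes, and 0 of 9 higher against 3.42%. In 5-FU, 0 of 9 were called in either direction, beside 10.1% of the panel called higher and 10.1% called lower. In Combi, CDK4 and CDKN1B fell, 2 of 9 against 6.58% of all genes, with 0 of 9 higher against 13.6%. In SARB, CDKN1B fell, 1 of 9 against 20% of all genes, with 0 of 9 higher against 8.63%. Counts of 0 to 2 among 9 genes are too coarse to place these genes apart from the panel. These are bulk RNA measurements, in which fewer cells expressing a gene and less RNA per cell cannot be told apart.

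Without the fold minimum, 1 of the 9 genes had an adjusted p of at most 0.05 on the higher side in TQ (CDK6, against 4.66% of all genes), in 5-FU (CDKN2B, against 12.2%) and in Combi (CDKN1C, against 16%). On the lower side the counts without the fold minimum were 2 in TQ (29.9% of all genes), 0 in 5-FU (15.8%) and 2 in Combi (12.6%). In SARB they were 5 lower (27.5% of all genes), namely CDK2, CDK4, CDKN1B, CDKN1C and CDKN2C, and 0 higher (11.8%). The count for SARB thus went from 1 to 5 when the fold minimum was dropped, since CDK2, CDK4, CDKN1C and CDKN2C had folds between 1.44 and 1.49. With TMM none of these 5 values passed, at log2 fold changes of −0.34 to −0.15 and adjusted p of 0.251 to 0.595. The groups did not overlap with control for 3 of the 9 genes under TQ, 1 under 5-FU, 2 under Combi and 4 under SARB, where 45.6%, 44.1%, 36% and 42.1% of all genes did not overlap. The median log2 fold change of the 9 genes was −0.16 for TQ, −0.07 for 5-FU, −0.32 for Combi and −0.53 for SARB, beside −0.47, −0.27, −0.10 and −0.41 over all 730 genes. All 4 comparisons use the same control samples. Every fold change here is relative to the housekeeping genes. With TMM, which centers the bulk of all genes, the median over all genes lay between −0.07 and −0.02, so a gene near 0 under housekeeping scaling in TQ or SARB lies above the bulk of the panel.

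**Figure D1:**
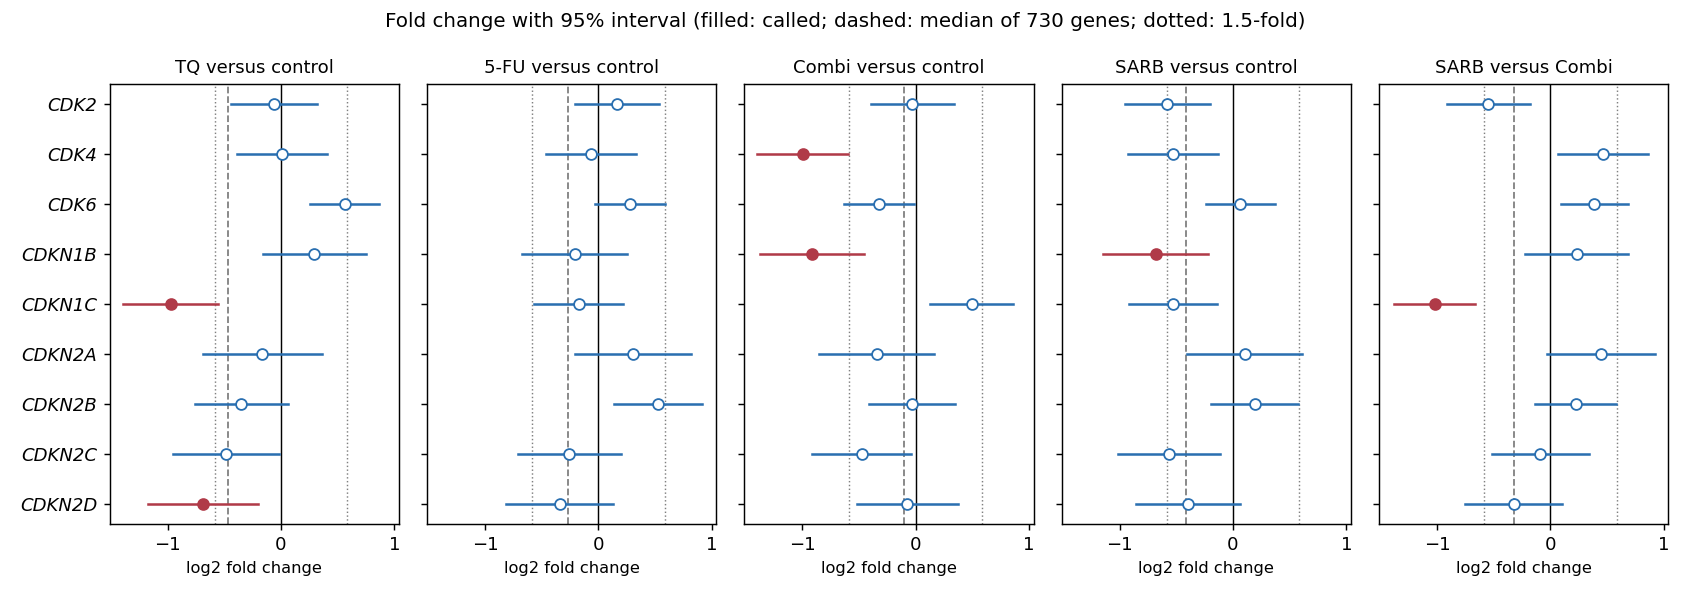
Log2 fold change of the 9 genes (rows) in the 5 comparisons (panels), with 95% intervals from the edgeR fit of 15 samples. Filled red points were called, the dashed line is the median of all 730 genes, and the dotted lines mark a fold of 1.5. CDK4 in Combi lies at −0.99 and CDKN1C at −0.97 in TQ and −1.02 in SARB against Combi.

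CDK4, the partner of D-type cyclins in G1, had its lowest levels in Combi. Its scaled counts were 1271, 1104 and 988 in control replicates 1 to 3 and 805, 429 and 468 in Combi replicates 1 to 3, so every Combi sample lay below every control sample. The mean fell from 1121 ± 142 (SD, n = 3) to 568 ± 207, with a difference of −0.99 on the log2 scale (adjusted p = 3.56e-04, standard error 0.19). Within Combi the samples differed by cartridge. Replicate 1, run beside control replicates 2 and 3, stood at a log2 ratio of −0.38 to them, and the mean of the pair on cartridge 3 stood at −0.84 to replicate 1. With cartridge as a block the difference was −0.38 (adjusted p = 0.285) and the call was lost. No other alternative removed it. The part of the cartridge in the fall was not tested, since cartridge 3 held no control sample.

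In SARB the CDK4 counts were 950, 640 and 737, again below all 3 control samples. Here the difference was −0.53 on the log2 scale (adjusted p = 0.0328, standard error 0.19), or 1.44-fold, under the minimum. It was called at −0.71 with cartridge as a block and when control replicate 3 (−0.61) or SARB replicate 1 (−0.70) was left out, and it was −0.19 with TMM. In TQ the counts were 1165, 1229 and 979 and in 5-FU 1165, 1120 and 921, which overlapped with control. The 95% intervals of the log2 fold change were −0.39 to 0.40 in TQ and −0.46 to 0.33 in 5-FU. Of the 5 groups in order of mean, TQ, control, 5-FU, SARB and Combi, each overlapped with the next.

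The upstream sequence of CDK4 is shown because this gene and CDKN1B, shown further on, were the pair called lower in Combi. The 250 bases before its RefSeq transcript start (GRCh38.p14, chr12:57752311-57752560, minus strand), read 5′ to 3′, hold 3 copies of the E-box CACGTG, which is in capitals and is the letters bound by MYC and related factors. The copies begin 216, 196 and 101 bases before the start.
CDK4: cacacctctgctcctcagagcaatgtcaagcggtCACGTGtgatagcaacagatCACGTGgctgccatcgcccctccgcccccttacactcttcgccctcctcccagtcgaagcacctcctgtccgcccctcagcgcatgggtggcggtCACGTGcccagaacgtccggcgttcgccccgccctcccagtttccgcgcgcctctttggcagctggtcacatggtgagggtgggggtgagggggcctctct
Of 35116 such RefSeq windows of 250 bases, 6.345% hold CACGTG at least once, and the letters read the same on both strands. The match is a description of the sequence, and binding was not measured.

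CDK6, which shares the D-type cyclins and the retinoblastoma protein with CDK4, had its highest levels in TQ. It had scaled counts of 320, 252 and 224 in control and 438, 347 and 399 in TQ, without overlap. Its log2 fold change was 0.56 (adjusted p = 0.00767, standard error 0.15), and the fold of 1.48 missed the minimum. It was called higher without control replicate 1 (0.71), without TQ replicate 2 (0.66), with TMM (1.00) and with DESeq2 (1.04). Against control replicate 1, its neighbor on the cartridge, the mean of TQ stood at only 0.30, since that control sample was the highest of the 3. The other groups had smaller differences. The counts were 335, 307 and 321 in 5-FU, 295, 302 and 240 in SARB, and 229, 194 and 215 in Combi, and all 3 groups overlapped with control. In the order of means, TQ, 5-FU, SARB, control and Combi, TQ did not overlap with 5-FU, nor 5-FU with SARB, while the rest overlapped with the next.

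The ratio of the CDK4 and CDK6 counts within a sample does not depend on the scaling. It was higher in every control sample than in every treated sample. The log2 ratio was 1.99, 2.13 and 2.14 in control, 1.41, 1.82 and 1.30 with TQ, 1.80, 1.87 and 1.52 with 5-FU, 1.81, 1.15 and 1.12 with Combi, and 1.69, 1.08 and 1.62 with SARB. The highest treated value, 1.87 in 5-FU replicate 2, lay close to the lowest control value, 1.99 in replicate 1. The group means were 2.09 ± 0.09 (SD, n = 3) in control, 1.51 ± 0.28 with TQ, 1.73 ± 0.18 with 5-FU, 1.36 ± 0.39 with Combi and 1.46 ± 0.33 with SARB. The differences from control were −0.58, −0.36, −0.73 and −0.63. An exact two-sided permutation test gave p = 0.1 for each of them, the smallest p that 3 against 3 samples allow, and 0.125 after adjustment over 5 comparisons. Unlike the ratio, the part of each gene depends on the scaling. Under housekeeping scaling CDK6 had the larger difference from control in TQ and CDK4 in Combi and SARB. With TMM it was CDK6 in SARB (0.40, beside −0.19 for CDK4). SARB and Combi differed by 0.10 (exact p = 1), and the sign of this difference turned when SARB replicate 1, Combi replicate 2 or Combi replicate 3 was left out.

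**Figure D2:**
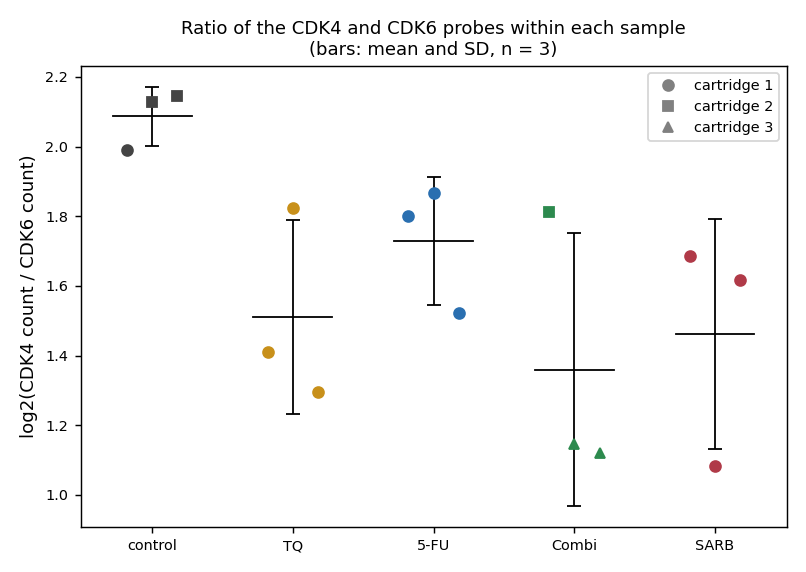
Log2 ratio of the raw CDK4 count to the raw CDK6 count in each of 15 samples, by group on the horizontal axis, with bars for mean and SD (n = 3) and symbols for the cartridge. The control samples sit between 1.99 and 2.14, above all 12 treated samples.

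CDK2, the kinase of cyclin E and cyclin A, overlapped with control in all 4 treatments. Its scaled counts were 297, 395 and 343 in control, 338, 344 and 309 in TQ, 435, 416 and 309 in 5-FU, and 400, 295 and 326 in Combi, all overlapping. Their log2 fold changes were −0.06, 0.16 and −0.03, and the 95% intervals reached from −0.44 to 0.54. SARB had the lowest mean, with counts of 299, 224 and 177, of which the highest just overlapped with the lowest control sample. SARB differed from control by −0.58 on the log2 scale (standard error 0.18, adjusted p = 0.0158), a 1.49-fold difference just under the minimum. It was called without control replicate 1 (−0.67), without SARB replicate 1 (−0.80) and with the values normalized by the authors (−0.69). With TMM it was −0.23 (adjusted p = 0.358) and with DESeq2 −0.22, and its mean stood at −0.35 to control replicate 1, the neighbor on the cartridge. SARB did not overlap with TQ, the next group above it.

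**Figure D3:**
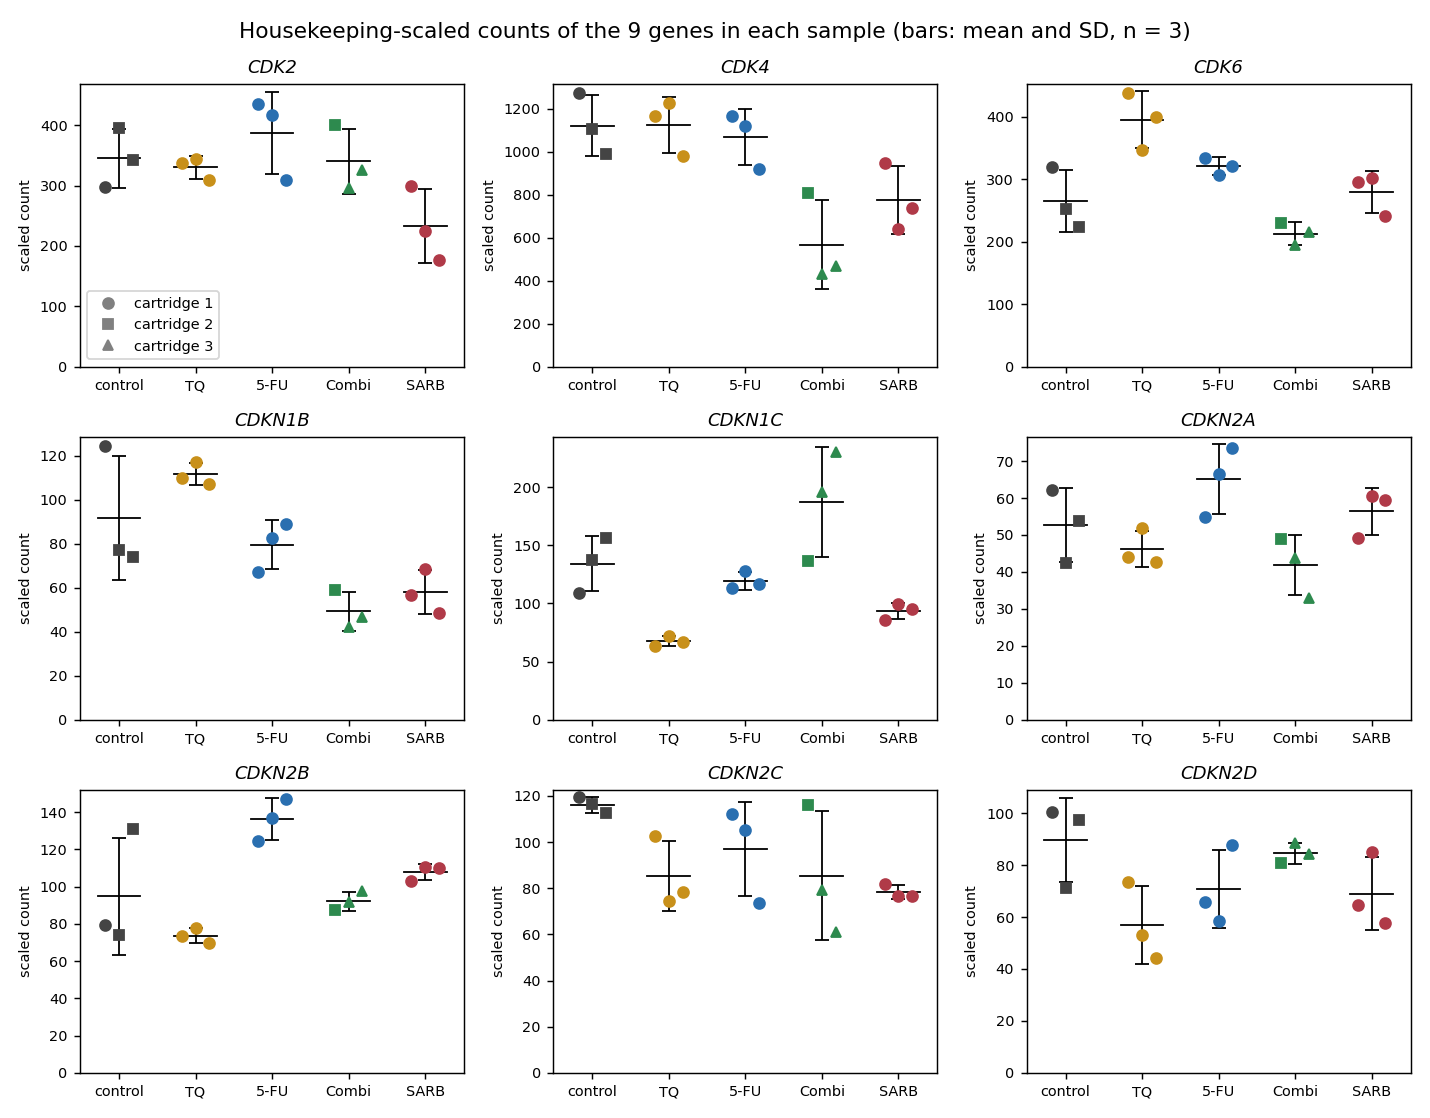
Scaled counts (vertical axis, from 0) of the 9 genes in each of the 15 samples, by group, with bars for mean and SD (n = 3) and symbols for the cartridge. CDK4 is at 429 to 805 in Combi against 988 to 1271 in control, and CDKN1C is at 63.7 to 72.1 in TQ against 109 to 156 in control.

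CDKN1B, which encodes p27, the inhibitor of CDK2 complexes, was lowest in Combi and SARB. Its scaled counts were 125, 77.1 and 74.0 in control, 59.1, 42.2 and 46.7 in Combi, and 56.9, 68.8 and 48.7 in SARB, so both treatments lay below all control samples. Combi differed from control by −0.92 (adjusted p = 0.00298) and SARB by −0.68 (adjusted p = 0.0199) on the log2 scale, each with a standard error of 0.22. Control replicate 1, the control on cartridge 1, stood above the other control samples by a log2 ratio of 0.72, and the SARB call rested on it. Without that sample the change in SARB was −0.41 (adjusted p = 0.146), without SARB replicate 3 it was −0.55 (adjusted p = 0.101), and with cartridge as a block, which sets SARB against that control sample alone, it was −1.13 and remained called. In Combi the call was kept with each sample left out, at −1.05 to −0.64, while the block gave −0.35 (adjusted p = 0.571). With TMM the change was −0.34 in SARB, no longer called, and with the values normalized by the authors it was −0.65 (adjusted p = 0.0507), also not called. The call in Combi was kept with both.

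In TQ the CDKN1B counts were 110, 117 and 107, between the control samples, and in 5-FU they were 67.2, 82.5 and 89.0. The log2 fold change in TQ was 0.29 (95% interval −0.16 to 0.75), and with TMM it was called higher at 0.76 and with the cartridge block it was −0.15. With each sample left out the change of CDKN1B in TQ stayed between 0.16 and 0.57, and of the alternatives only the cartridge block turned its direction. The order of means was TQ, control, 5-FU, SARB and Combi, and each group overlapped with the next.

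The upstream window of CDKN1B (GRCh38.p14, chr12:12717118-12717367, plus strand) holds no CACGTG. It has 2 copies of the CCAAT box, in capitals, the letters bound by the factor NF-Y, which begin 174 and 50 bases before the start.
CDKN1B: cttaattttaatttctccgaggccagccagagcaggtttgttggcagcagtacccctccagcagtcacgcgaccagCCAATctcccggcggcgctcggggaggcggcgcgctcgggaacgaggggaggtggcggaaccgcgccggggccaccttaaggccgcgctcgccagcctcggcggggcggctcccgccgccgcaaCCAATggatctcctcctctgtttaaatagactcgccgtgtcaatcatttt
CCAAT on either strand is found in 32.008% of the 35116 windows. E2F-type letters (TTTCCCGC, TTTCGCGC, TTTGCCGC or TTTGGCGC, on either strand) are found in 2.788% of them and in none of the windows of the 7 genes matched, and that says only that these letters are not in these windows. No window was matched for CDK2 and CDKN1C. Among the other matched genes, CACGTG was found in 2 windows of CDKN2C, and CCAAT in windows of CDKN2C and CDKN2D.

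CDKN1C, which encodes p57, the family member best known from imprinted growth control, had the largest fall of the 9 genes in TQ. Its scaled counts were 109, 138 and 156 in control and 63.7, 72.1 and 66.5 in TQ, without overlap and with little spread in TQ. On the log2 scale the difference was −0.97 (adjusted p = 0.00126, standard error 0.20), from 134 ± 23.8 to 67.4 ± 4.32 (SD, n = 3). It kept its call with each sample left out, at −1.10 to −0.85. With TMM it was −0.48 (adjusted p = 0.115), with DESeq2 −0.45, and with cartridge as a block −0.67 (adjusted p = 0.0758), all still lower and none called. In Combi the gene stood on the other side of control. The counts there were 136, 196 and 230, the difference was 0.49 on the log2 scale (adjusted p = 0.0393, standard error 0.18), and the fold of 1.41 missed the minimum. The higher pair were again the samples on cartridge 3, at 0.64 above Combi replicate 1, which itself stood at −0.11 to the control samples beside it. The difference was called without Combi replicate 1 (0.66), without control replicate 3 (0.62) and with TMM (0.60), and with the block it turned to −0.11.

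In SARB the CDKN1C counts were 85.8, 99.8 and 94.98, below all control samples, with a difference of −0.53 on the log2 scale (adjusted p = 0.031, standard error 0.19). The fold of 1.44 missed the minimum. Without control replicate 1 it was called at −0.65, while it shrank to −0.15 with TMM (adjusted p = 0.595), −0.14 with DESeq2 and −0.22 with the cartridge block. In 5-FU the counts were 114, 128 and 117, within the range of control (log2 fold change −0.17, 95% interval −0.56 to 0.22). The order of means was Combi, control, 5-FU, SARB and TQ. Neither 5-FU and SARB nor SARB and TQ overlapped, so the 3 lowest groups were distinct in their ranges.

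Of the 4 INK4 genes, CDKN2D alone was called against control, lower in TQ, where 21.6% of all genes were called lower. None was called in 5-FU, Combi or SARB, where 10.1%, 6.58% and 20% of all genes were called lower. The shares called higher there were 10.1%, 13.6% and 8.63%. With 4 genes, such counts are too coarse to place the INK4 genes apart from the panel. CDKN2D encodes p19INK4d, whose level rises in S phase in many cells. Its scaled counts were 100, 71.1 and 97.5 in control and 73.4, 53.0 and 44.3 in TQ, so the groups overlapped. TQ differed from control by −0.69 on the log2 scale (adjusted p = 0.0299, standard error 0.23). This call was weak. It was lost on leaving out control replicate 1 (−0.60) or 3 (−0.62) or TQ replicate 2 (−0.64) or 3 (−0.57), and also with TMM (−0.21), with the values normalized by the authors (−0.65) and with the cartridge block (−0.86, adjusted p = 0.123). In the other treatments the counts were 65.9, 58.5 and 87.6 in 5-FU, 80.7, 88.5 and 84.4 in Combi, and 64.6, 84.9 and 57.6 in SARB. All overlapped with control, and the order of means was control, Combi, 5-FU, SARB and TQ, with each group overlapping with the next.

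CDKN2B encodes p15, an INK4 protein induced by TGF-beta in epithelial cells, and it was highest in 5-FU. In 5-FU its scaled counts were 125, 137 and 147, against 79.6, 74.1 and 131 in control. Control replicate 3 alone lay within the 5-FU range. The difference was 0.52 on the log2 scale (adjusted p = 0.0396, standard error 0.19), a fold of 1.44, and without control replicate 3 it was called at 0.83 (adjusted p = 0.00125). It was also called without 5-FU replicate 1 (0.59), with TMM (0.73), with DESeq2 (0.74) and with the values normalized by the authors (0.65). With the cartridge block (0.77) and with the replicate block (0.54) it was not called. SARB, at 103, 111 and 110, TQ, at 73.4, 77.7 and 69.9, and Combi, at 87.5, 91.7 and 97.6, overlapped with control, and their 3 ranges did not overlap with each other or with 5-FU. By mean the order was 5-FU, SARB, control, Combi and TQ.

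CDKN2A, the neighbor of CDKN2B, encodes p16 and, from another reading frame, p14ARF. A single probe counted it, and which of the transcripts that probe covers was not analysed here. The scaled counts were 62.3, 42.3 and 53.8 in control, 44.1, 51.8 and 42.6 with TQ, 54.9, 66.5 and 73.7 with 5-FU, 48.9, 43.7 and 32.9 with Combi, and 49.2, 60.7 and 59.5 with SARB. All 4 treatments overlapped with control, and none passed the test. The 95% intervals of the log2 fold change reached from −0.69 to 0.36 for TQ, −0.21 to 0.81 for 5-FU, −0.85 to 0.16 for Combi and −0.40 to 0.61 for SARB. Each of these intervals still holds a change of 1.5-fold in at least 1 direction, so such a change is not excluded for CDKN2A.

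CDKN2C encodes p18, and its control samples were the tightest of the 9 genes, with scaled counts of 119, 116 and 113. In SARB the counts were 81.9, 76.9 and 76.8, below control by −0.56 on the log2 scale (adjusted p = 0.0429, standard error 0.21), a fold of 1.48 that missed the minimum. With TQ they were 103, 74.6 and 78.4 and with 5-FU 112, 105 and 73.7, also below every control sample, with adjusted p values of 0.092 and 0.401. In Combi the counts were 116, 79.0 and 61.1, and replicate 1, the sample beside the controls on cartridge 2, lay within their range. The pair on cartridge 3 stood at −0.73 to it, and without replicate 1 the difference was called at −0.72 (adjusted p = 0.00736), while the block gave 0.02. Thus CDK4, CDKN1C and CDKN2C each had the samples of cartridge 3 apart from Combi replicate 1. The same log2 difference was −0.41 for CDKN1B, −0.37 for CDK2, −0.35 for CDKN2A, −0.17 for CDK6, 0.11 for CDKN2B and 0.10 for CDKN2D.

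**Figure D4:**
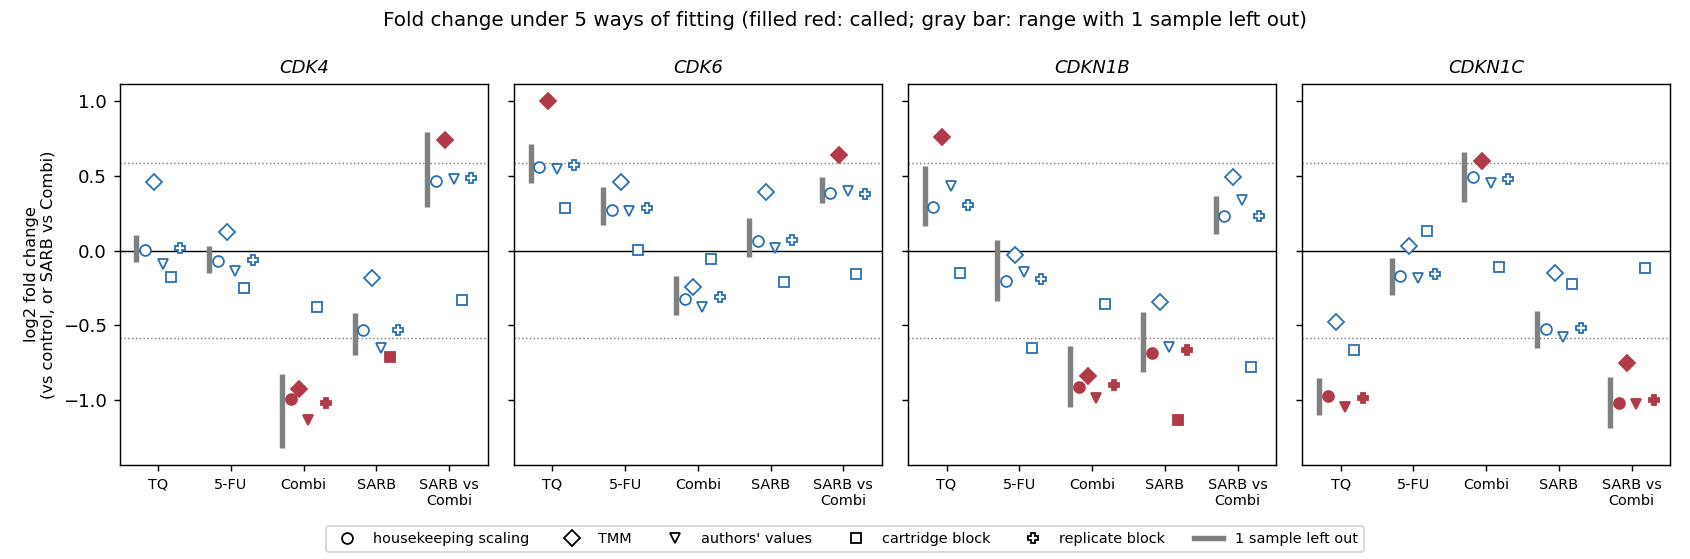
Log2 fold change of CDK4, CDK6, CDKN1B and CDKN1C (panels) in 5 comparisons (horizontal axis) under 5 ways of fitting (symbols), with a gray bar for the range when 1 of 15 samples was left out. Red symbols were called. CDK4 and CDKN1B in Combi drop to −0.38 and −0.35 with cartridge as a block, and CDKN1C in SARB against Combi to −0.12.

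SARB and Combi were set against each other at 35 µM of each compound, to ask whether joining TQ and 5-FU in 1 molecule gave other levels than mixing them. Of the 9 genes, 1 was called lower in SARB than in Combi (11.2% of all genes) and 0 higher (0.959%). The gene called was CDKN1C, at 85.8 to 99.8 scaled counts in SARB and 136 to 230 in Combi, without overlap (log2 fold change −1.02, standard error 0.17, adjusted p = 3.64e-04). Without the fold minimum CDK2 passed on the lower side as well, at −0.55 (standard error 0.18, adjusted p = 0.0343), giving 2 of 9 lower (15.5% of all genes) and 0 higher (2.74%). The groups did not overlap for 4 of the 9 genes, CDKN1C on the lower side and CDK6, CDKN2A and CDKN2B on the higher, against 33.8% of all genes. The median log2 fold change was 0.22 for the 9 genes and −0.32 for all genes. Most differences were small or wide in their intervals. The 95% interval was 0.07 to 0.86 for CDK4, 0.09 to 0.68 for CDK6, −0.22 to 0.69 for CDKN1B, −0.03 to 0.93 for CDKN2A, −0.13 to 0.58 for CDKN2B, −0.52 to 0.34 for CDKN2C and −0.76 to 0.11 for CDKN2D, so a difference past 1.5-fold in these genes was left possible by 5 of the 7 intervals, and CDKN2B and CDKN2C were the exceptions.

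Scaling and cartridge moved this comparison most. With TMM, CDK4 (0.74), CDK6 (0.64) and CDKN2A (0.73) were called higher in SARB than in Combi, and CDKN1C kept its call. With cartridge as a block, CDKN1C stood at −0.12 (adjusted p = 0.997), and 1 of all 730 genes was called. That fit links SARB and Combi only through the control samples on cartridges 1 and 2 and leaves the pair on cartridge 3 without weight. Because SARB and Combi ran on separate cartridges, the difference in CDKN1C between the hybrid and the mixture cannot be told apart from one between cartridges.

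For each of the 4 genes called against control, the panel gene with the most similar profile was found, by Pearson r of log2(scaled count + 1) over the 15 samples, among 505 genes with a mean raw count of at least 20. CDK4 was most like GRB2, an adaptor of receptor tyrosine kinases (r = 0.95), and CDKN1B was most like BMP4, a secreted growth factor (r = 0.905). CDKN1C was most like HDAC11, a histone deacetylase (r = 0.917), and CDKN2D was most like CREBBP, a histone acetyltransferase (r = 0.838). The samples share their housekeeping factor and their cartridge, so these values describe the profiles only. With TMM they became 0.934, 0.93, 0.841 and 0.485, and BMP4 alone was still the gene most like its partner.

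Of a list of 50 other genes of G1 and S phase, 36 were on the panel, and several moved more than the 9 genes did. TQ had 2 of them called higher and 3 lower, 5-FU 8 and 8, Combi 6 and 8, and SARB 4 and 10. Over the whole panel the called shares, higher and lower, were 3.42% and 21.6%, 10.1% and 10.1%, 13.6% and 6.58%, and 8.63% and 20% in the same order. The medians of the list were −0.20, −0.20, −0.33 and −0.31, beside the medians over all genes given above. The p53-induced inhibitor CDKN1A (p21), the close relative of CDKN1B and CDKN1C, was among the genes called in all 4 treatments. It stood at 1004 ± 304 scaled counts (SD, n = 3) in control and rose to 4542 ± 951 with 5-FU, 6441 ± 533 with Combi and 5260 ± 947 with SARB (log2 fold changes 2.18, 2.68 and 2.39). In TQ it fell to 520 ± 20.9 (−0.95, adjusted p = 6.71e-04), a call lost with TMM (−0.47) and with the cartridge block (−0.56). Under housekeeping scaling with all samples, neither CDKN1B nor CDKN1C was called higher where CDKN1A rose. For CDKN1C in Combi this depended on the fit, since it was called higher with TMM (0.60).

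Among the cyclins, CCNB1, which takes cells into mitosis, was called lower in 5-FU (−1.26), Combi (−1.63) and SARB (−1.71). CCNA2, the partner of CDK2 in S phase, was called lower in the same groups, at −0.86 in 5-FU, −0.95 in Combi and −0.96 in SARB. Of the D-type cyclins, partners of CDK4 and CDK6, CCND1 and CCND3 had higher means than control in all 4 treatments. CCND3 stood at 0.86 with 5-FU, 1.39 with Combi and 0.80 with SARB, and CCND1 at 0.77 in TQ, 0.81 in 5-FU and 0.95 in SARB, all called higher. CCND3 in TQ (0.39) and CCND1 in Combi (0.41) were not called. The former was called with TMM (0.87), and the latter without control replicate 1 (0.685). CCND2, named after its values were seen, had raw counts of 1 to 17 over all samples, under the background threshold in each. It was not called in any treatment (−1.68 with TQ, −1.84 with 5-FU, −0.50 with Combi and −1.22 with SARB). CCNE1, a partner of CDK2, was called higher with TQ (0.79), 5-FU (0.64) and Combi (0.82) and stood at 0.49 in SARB, under the fold minimum. Its call in TQ and Combi was kept in every alternative run, and that in 5-FU was lost without control replicate 1 (0.52). In SARB CCNE1 was called with TMM (0.86), DESeq2 (0.88), the cartridge block (0.78) and without control replicate 3 (0.66). With the cartridge block CCND3 in Combi (0.73) and CCND1 in TQ (0.35), 5-FU (0.38) and SARB (0.53) were no longer called. CDC25C, a phosphatase that activates mitotic kinase, was called lower in all 4 treatments, at −0.79 with TQ, −1.19 with 5-FU, −0.96 with Combi and −1.18 with SARB, of which the value in TQ was not called with TMM (−0.32).

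The remaining genes of the list with the largest called changes belonged to replication and its control. PCNA, the sliding clamp of DNA polymerase, fell by 0.70 on the log2 scale in TQ, a call lost with TMM (−0.25), and was called higher in Combi at 0.72, a call lost with the cartridge block (0.58). It stood at 0.37 in 5-FU and 0.52 in SARB, neither called. MCM7 and MCM5, subunits of the replicative helicase, were both called lower in 5-FU (−0.73 and −0.85), Combi (−1.03 and −0.77) and SARB (−0.92 and −1.12). With TMM the calls of MCM7 in 5-FU (−0.55) and SARB (−0.57) were lost, and with the cartridge block that of MCM5 in Combi (−0.60). FBXW7, which marks cyclin E for destruction, was called higher in 5-FU at 0.82 and in Combi at 0.69, the latter lost without Combi replicate 1 (0.44) or control replicate 1 (0.60), and the checkpoint kinase ATM in Combi at 1.16, the latter lost with the cartridge block (0.66). Between SARB and Combi, 1 gene of the list was called higher (0.959% of all genes) and 3 lower (11.2%). The median of the list was −0.02, beside −0.32 over all genes. E2F1, a transcription factor released by the retinoblastoma protein, was higher at 0.62 and E2F5 lower at −0.73. E2F5 lost its call with TMM and with DESeq2, and both lost theirs with the cartridge block. ATM was lower at −0.77 and CCND3 at −0.59, and both turned with the cartridge block, to 0.17 and 0.23. These 2 calls were also lost with TMM (−0.52 and −0.32), DESeq2 (−0.44 and −0.24) and the authors' values (−0.79 and −0.55). Some fits with 1 sample left out lost them too, such as those without Combi replicate 3 (−0.64 and −0.58). The groups overlapped for CCND3.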

How the data were processed

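RNA from 15 HCT116 cultures (50 ng each) was measured on the nCounter PanCancer Pathways Panel, and the labels give 3 biological replicates per group. The authors deposited raw counts per probe, not normalized. They also deposited normalized signal values, made with nSolver Analysis Software 3.0 from the geometric mean of the housekeeping genes. These values lay within 1% of the count minus the negative probe background, times 1 factor per sample, in 100% of cases in every sample. Another deposited table holds the authors' fold changes and p-values and was not used.

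All 730 endogenous genes of all 15 samples entered 1 edgeR quasi-likelihood fit (edgeR 4.0.16, R 4.3.3) on raw counts, with library sizes from the geometric mean of the 40 housekeeping genes. Calls were made at 0.05 after Benjamini-Hochberg adjustment over the 730 genes, with a minimum fold of 1.5. Intervals are 95% intervals of the fit. Relative depth ranged from 0.409 to 2.03, and counting error limits the genes with the fewest counts, such as CDKN2A. The alternatives were TMM, DESeq2 1.42.0, limma 3.58.1 on the deposited normalized values, a minimum mean count of 20, a floor of 20 counts, the cartridge or the replicate number as a block, and each sample left out. Cartridges were read from the scanner file names in the labels. The fits were tested on simulated data. No 2 samples of a group agreed within sampling noise (chi-square over degrees of freedom 1.56 to 14.8).

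The 9 genes and the lists were chosen with earlier results of these data known. Named were all 9 genes, for each one called against control the gene with the highest r, and, of the other G1 and S phase genes, up to 3 called in each direction and comparison by fold. Sequences are from RefSeq (GRCh38.p14), where 9 of 9 genes were listed by symbol and 7 had an upstream window.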

Additional observations from a re-analysis of the deposited data

How the results depend on the processing

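Over 22 alternatives, 890 of the fold changes of single genes kept both direction and call, 32 gained a call, 19 lost theirs and 49 turned in sign. The minimum mean count and the floor of 20 counts changed no call among the 9 genes.

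The share of all genes called in the same fit is given in brackets. With TMM the counts of the 9 genes called became 2 higher (10.8%) and 0 lower (6.03%) in TQ. They became 1 higher in 5-FU (14.2%), 1 higher in Combi (16.3%), 0 lower in SARB (9.32%) and 3 higher in SARB against Combi (5.34%). DESeq2 gave 2 higher (11.6%) and 0 lower (5.34%) in TQ, 1 higher in 5-FU (14%), 0 lower in SARB (8.22%) and 3 higher in SARB against Combi (6.58%). The authors' normalized values gave 1 lower in TQ (13.2%) and 1 higher in 5-FU (12.3%). They left the count for SARB at 1 lower (19.3%), but of another gene. There CDKN1B lost its call at a log2 fold change of −0.65, and CDK2 gained one at −0.69. With cartridge as a block the counts were 0 lower in TQ (3.56%), 0 lower in Combi (4.79%), 2 lower in SARB (7.67%) and 0 lower in SARB against Combi (0.137%).

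Signs turned as follows. With TMM they were 0.41 for CDK2, 0.33 for CDKN2A and 0.15 for CDKN2B in TQ, 0.12 for CDK4 and 0.032 for CDKN1C in 5-FU, 0.059 for CDK2, 0.075 for CDKN2B and 0.020 for CDKN2D in Combi, and 0.20 for CDKN2C in SARB against Combi. With DESeq2 they were 0.44 for CDK2, 0.36 for CDKN2A, 0.18 for CDKN2B and 0.022 for CDKN2C in TQ, 0.14 for CDK4 and 0.044 for CDKN1C in 5-FU, 0.012 for CDKN2B in Combi and 0.26 for CDKN2C in SARB against Combi. With the authors' normalized values they were −0.089 for CDK4 and 0.039 for CDKN2A in TQ and 0.006 for CDKN2B in Combi. With cartridge as a block they were 0.15 for CDK2, −0.17 for CDK4 and −0.15 for CDKN1B in TQ, 0.13 for CDKN1C in 5-FU, 0.12 for CDK2, −0.11 for CDKN1C, 0.028 for CDKN2A and 0.017 for CDKN2C in Combi, −0.21 for CDK6 and −0.14 for CDKN2A in SARB, and −0.33 for CDK4, −0.16 for CDK6, −0.78 for CDKN1B and −0.17 for CDKN2A in SARB against Combi. The causes were not tested.

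The replicate numbers did not pair the samples, since same-numbered samples correlated at −0.67 to 0.39 and 2 of 15 samples correlated best with their own number. With the replicate block 2 genes were called lower in SARB in place of 1 (17.3% of all genes in that fit). CDK2 joined at −0.60, and no other call among the 9 genes changed.

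With each sample left out in turn, the counts ranged from 0 to 1 higher in TQ (2.88% to 4.66% of all genes). The lower side of TQ had 1 to 2 (8.49% to 28.5%). They were 0 to 1 higher in 5-FU (8.49% to 10.8%) and 0 to 1 higher in Combi (11.1% to 14.2%). SARB had 0 to 3 lower (12.5% to 33.3%), with 0 without SARB replicate 3 (12.6%) and 3 without SARB replicate 1 (17.5%). SARB against Combi had 0 to 1 higher (0.822% to 1.64%) and 1 to 2 lower (5.48% to 20.3%). On the lower side in Combi, CDK4 and CDKN1B kept their calls. CDKN2C joined them at −0.72 without Combi replicate 1, where 9.18% of all genes were called lower. Fold changes that turned ranged from −0.158 to 0.047 for CDK2 and −0.076 to 0.106 for CDK4 in TQ, −0.151 to 0.031 for CDK4 and −0.336 to 0.070 for CDKN1B in 5-FU, −0.155 to 0.080 for CDK2, −0.19 to 0.27 for CDKN2B and −0.222 to 0.014 for CDKN2D in Combi, −0.043 to 0.218 for CDK6 and −0.038 to 0.237 for CDKN2A in SARB, and −0.29 to 0.16 for CDKN2C in SARB against Combi. The difference of the CDK4 to CDK6 ratio between SARB and Combi ranged from −0.017 to 0.328. Its differences from control kept their sign, also with background subtracted.

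For the 36 other G1 and S phase genes, the share of all genes called in the same fit is again in brackets. TMM called 8 higher (10.8%) and 0 lower (6.03%) in TQ, and 5 lower in 5-FU (5.62%). It called 9 higher (16.4%) with 4 lower (9.32%) in SARB, and in SARB against Combi 5 higher (5.34%) but 0 lower (7.4%). DESeq2 called 10 higher (11.6%) and 0 lower (5.34%) in TQ, and 4 lower in 5-FU (4.79%). It called 9 higher (15.9%) with 4 lower (8.22%) in SARB, and in SARB against Combi 5 higher (6.58%) but 0 lower (5.48%). The cartridge block gave 1 higher in TQ (1.78%), 3 higher in Combi (8.36%) and 6 lower in SARB (7.67%). In SARB against Combi it gave 0 higher (0%) and 0 lower (0.137%), where the authors' values gave 1 lower (7.53%).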
